A study of Mus musculus with 31 samples.

Results

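The expression of 9 genes was followed that build or load major histocompatibility complex (MHC) class I molecules, namely H2-K1, H2-D1, B2m, Tap1, Tap2, Tapbp, Psmb8, Psmb9 and Nlrc5. They were taken by name from every expression table, and all 9 were present among the 24062 gene names of the dentate gyrus tables and the 24322 names of the culture tables. The rule behind the choice used no measured value, but earlier results of these data were known when it was made. The 21 RNA sequencing libraries formed 7 groups of 3, and the 10 other samples of the series (chromatin accessibility and chromatin immunoprecipitation) were not analysed here. Of the 5 comparisons, 3 were made in EGFP-positive dentate gyrus cells at 8 weeks, 1 at postnatal day 10 (P10) and 1 in cultured neural stem cells.

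The dentate gyrus cells came from C57BL/6 Nestin-EGFP mice, in which a Nestin-driven green fluorescent protein marks neural stem cells and, because the protein persists, their recent progeny. All of these mice had intraperitoneal injections on postnatal days 7, 8 and 9, of water in Control P10 and Control 8w and of midazolam at 10 mg/kg in MDZ P10, MDZ 8w and RUN MDZ 8w. Midazolam (MDZ) is a benzodiazepine sedative that enhances GABA-A receptor currents. The RUN MDZ 8w mice had a running wheel, and no water-injected running group was among the samples. Sorted cells of 1 mouse made a P10 library (50000 cells), and cells pooled from 3 to 5 mice made an 8-week library (about 30000 cells). The culture groups were wild-type ICR neural stem cells of cortical origin (embryonic day 11), kept through over 20 passages in bFGF and EGF. Control culture carried a lentivirus for the transactivator M2rtTA, and Egr1 culture carried that virus and another for Flag-tagged Egr1, a zinc finger transcription factor. Added Egr1 and the added virus cannot be told apart in this design. Nothing says that the cultures were grown separately, so their p-values measure only the spread between samples, which may be technical.

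MHC class I molecules display peptides from inside the cell to CD8 T cells. The heavy chains (H2-K1 and H2-D1 here) pair with B2m in the endoplasmic reticulum. Their peptides are cut by the proteasome, whose interferon-induced subunits Psmb8 and Psmb9 replace Psmb5 and Psmb6, pumped in by the Tap1-Tap2 transporter and loaded with the help of tapasin (Tapbp). Nlrc5 is a transactivator of these genes, and interferons raise most of them. Neurons and neural progenitors usually hold them at low levels, while microglia and endothelial cells hold more.

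In the GRCm38.p6 annotation (the mm10 build), 7 of the 9 genes lie on chromosome 17. Psmb9 (chr17:34182030-34187330, minus strand), Tap1 (chr17:34187556-34197225, plus strand), Psmb8 (chr17:34198195-34201454, plus strand) and Tap2 (chr17:34204479-34216321) stand side by side within 34292 bases. Only 225 bases separate Psmb9 from Tap1, and 969 separate Tap1 from Psmb8. Tapbp (chr17:33919478-33929290, plus strand) and H2-K1 (chr17:33996012-34000619, minus strand) lie on one side of this block and H2-D1 (chr17:35263094-35267497, plus strand) on the other. B2m is on chromosome 2 (chr2:122147687-122153082, plus strand) and Nlrc5 on chromosome 8 (chr8:94434335-94527272). B2m overlaps Patl2, Tapbp overlaps Gm19412, and the strand setting of the counting is not given in the sources used here, so reads of these pairs may have been shared. H2-K1, H2-D1 and the H2-Q genes are close copies of one another and vary between strains. Their reads may have been split, and how well ICR reads matched the C57BL/6-based build was not tested.

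The upstream sequences of the heavy chains and B2m are shown because these genes were all lower with added Egr1 in culture, and so is the stretch between Psmb9 and Tap1, which begins both genes. They were taken from RefSeq on GRCm38.p6, whose promoter table held 7 of the 9 genes (not Tap2 or Nlrc5). For H2-K1, H2-D1 and B2m they are the 250 bases before a start site, in the direction of transcription, at H2-K1 (chr17:34000334-34000583, minus strand, the more downstream of its 2 listed starts), H2-D1 (chr17:35262844-35263093, plus strand) and B2m (chr2:122147437-122147686, plus strand). The last is the whole interval chr17:34187331-34187555 on the plus strand, read from Psmb9 towards Tap1. The H2-K1 window lies inside the annotated span of H2-K1, which begins at 34000619 on the minus strand. Capitals mark matches on either strand to CCAAT (the Y box core), TGACG (the short form of the cyclic AMP response element), GAAANNGAA and GAANNGAAA (interferon-response cores) and GGGATTCCC (an NF-kB type site).
H2-K1: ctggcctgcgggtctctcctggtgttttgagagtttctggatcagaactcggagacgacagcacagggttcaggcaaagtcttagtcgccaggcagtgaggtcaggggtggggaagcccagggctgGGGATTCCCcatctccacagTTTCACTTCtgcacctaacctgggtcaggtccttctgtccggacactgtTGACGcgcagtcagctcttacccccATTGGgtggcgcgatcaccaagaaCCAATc
H2-D1: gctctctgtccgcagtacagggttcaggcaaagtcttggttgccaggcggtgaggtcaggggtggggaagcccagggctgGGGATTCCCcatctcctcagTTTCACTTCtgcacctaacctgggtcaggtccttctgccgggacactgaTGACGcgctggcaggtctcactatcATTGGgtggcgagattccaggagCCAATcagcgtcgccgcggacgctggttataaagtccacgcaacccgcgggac
B2m: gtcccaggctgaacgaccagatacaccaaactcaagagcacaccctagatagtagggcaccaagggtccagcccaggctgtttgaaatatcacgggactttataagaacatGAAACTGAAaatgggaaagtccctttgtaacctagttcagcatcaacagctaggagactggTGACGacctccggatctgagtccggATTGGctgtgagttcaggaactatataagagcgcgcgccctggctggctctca
Between Psmb9 and Tap1: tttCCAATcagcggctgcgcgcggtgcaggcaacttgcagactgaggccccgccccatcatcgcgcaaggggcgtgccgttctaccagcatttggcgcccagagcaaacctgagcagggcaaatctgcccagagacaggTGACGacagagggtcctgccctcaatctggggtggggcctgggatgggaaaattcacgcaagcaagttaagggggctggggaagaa

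Both heavy chain windows carried the same order of matches: GGGATTCCC, then GAANNGAAA on the reverse strand, then TGACG, then CCAAT on each strand. Over 192 aligned bases the pair were 89.6% identical. The 9 bases GGGATTCCC stood in 0.302% of 32817 promoter windows of the 250 bases before a start, and GAANNGAAA in 6.31%. These 2 motifs were added after the promoters had been read. B2m had GAAANNGAA, found in 7.12% of windows, with TGACG (17.7%) and CCAAT (33.8%) nearer the start. The interval between Psmb9 and Tap1 held CCAAT and TGACG. Psmb8 had TTCNNNGAA, the GAS core (7.01% of windows). The Egr motifs GCGTGGGCG (0.536%) and GCGGGGGCG (2.57%) were in none of the 7 members' windows, and neither were GGGANTTCC (1.43%) and TGACGTCA (1.55%).

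Several libraries stood apart. Control 8w replicates 2 and 3 were far more alike than any other 8-week pair (97.4% of their detected genes in both, Spearman 0.992). Replicate 1 shared 78.4% and 77.8% with them, and its 15 microglial markers summed to 0.287 TPM against 311 and 317. In tests replicates 2 and 3 were averaged and counted as 1 sample, so Control 8w had n = 2. Alternatives without replicate 1, or without replicates 2 and 3, left Control 8w with 1 sample and no spread of its own. Overlap between groups was judged on all deposited libraries. Genes above 0 numbered 11163 to 11397 in Control 8w but 15382 to 16709 in the other 8-week groups, and an exact 0 may be a failed estimate there. Depth is known only in relative terms: 0.57 to 1.0 of the deepest library at P10 and 0.901 to 1.0 in culture, and unknown at 8 weeks. The Y-linked Ddx3y was near 0 in 1 library at P10 (Control P10 replicate 1) and listed at 0 in RUN MDZ 8w replicates 1 and 3, and the labels do not give sex. Stem cell markers were present in every group. Endothelial, pericyte and oligodendrocyte markers were present in the sorted cells too, where more cells of a type and more RNA per cell cannot be told apart. Lymphocyte markers summed to at most 3.12 TPM at 8 weeks and 0.279 FPKM at P10.

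Levels per transcript length followed one broad order. B2m had the highest mean in all 7 groups, at 34.6 FPKM in Control P10 and 619 TPM in Control culture, and Nlrc5 the lowest or joint lowest. H2-K1 came next in 6 groups, and H2-D1 took that place in Control 8w. In Control P10 the order was B2m, H2-K1, Tapbp, Tap2, H2-D1, Tap1, Psmb8, Psmb9 and Nlrc5, with overlapping libraries for Tap2 and H2-D1 and for Psmb8 and Psmb9. In Control culture it was B2m, H2-K1, H2-D1, Tapbp, Tap1, Tap2, Psmb9, Psmb8 and Nlrc5. There, Tap2 and Psmb9 overlapped, as did Psmb9 and Psmb8. P10 values are FPKM and the rest TPM, and the tables were normalized separately, so no level was compared between them.

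Added Egr1 in culture was accompanied by lower levels of 7 of the 8 tested members. The heavy chains H2-K1 and H2-D1, their partner B2m, both transporter chains and both immunoproteasome subunits fell, and tapasin did not pass the test. A gene was tested when its mean reached 1 and called at an adjusted p below 0.05 (limma on log2(value + 1), Benjamini-Hochberg over all tested genes). Among all 12402 genes tested, 44.2% were called in either direction and 29% were called lower, so calls were common in this comparison. The median change was -0.85 log2 units over the tested members and -0.10 over all tested genes. Egr1 itself was at 361, 285 and 344 TPM in Control culture and at 1769, 1390 and 1291 TPM in Egr1 culture, a log2 change of 2.16 ± 0.13 (SE).

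H2-K1 stood at 88.2, 83.7 and 84.4 TPM in Control culture and at 42.6, 52.2 and 42.1 TPM with added Egr1. No library of one group reached the range of the other, and H2-K1 fell by 0.90 on the log2 scale (SE 0.088, adjusted p = 8.17e-05). H2-D1, the other classical heavy chain, was at 27.6, 25.8 and 27.4 TPM against 11.9, 12.6 and 11.6 TPM. It fell by 1.10 (SE 0.078, adjusted p = 1.24e-05), again without overlap. The ratio of H2-K1 to H2-D1 was 3.18 ± 0.086 (SD, n = 3) in Control culture and 3.79 ± 0.322 in Egr1 culture, and the ratio was higher in all 3 Egr1 libraries. B2m, the light chain shared by all class I molecules, was at 583, 633 and 642 TPM against 410, 394 and 431 TPM. Its fall of 0.59 (SE 0.061, adjusted p = 1.07e-04) was the smallest among the 7 called members.

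Tap1 read 11.4, 10.0 and 10.4 TPM in Control culture and 6.25, 6.57 and 5.28 TPM in Egr1 culture. It fell by 0.72 (SE 0.11, adjusted p = 8.87e-04), and the groups did not overlap. Tap2, the other chain of the transporter, was at 9.29, 6.99 and 7.95 TPM against 3.70, 2.77 and 2.27 TPM. Its fall of 1.22 (SE 0.16, adjusted p = 4.07e-04) was the largest of the 9 genes on this scale. The ratio of Tap1 to Tap2 was 1.32 ± 0.107 without and 2.13 ± 0.383 with added Egr1 (SD, n = 3 each). Tapbp, which bridges the transporter and the empty class I molecule, had 15.9, 13.6 and 16.2 TPM against 17.5, 14.3 and 15.4 TPM. These libraries overlapped, and the difference was 0.05 ± 0.11 (SE, adjusted p = 0.747).

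Psmb8 was at 4.88, 6.57 and 6.27 TPM in Control culture and at 2.32, 2.58 and 4.06 TPM in Egr1 culture. It fell by 0.81 (SE 0.18, adjusted p = 0.00672), with the third Egr1 library nearest the controls. Psmb9 was at 6.09, 10.3 and 6.36 TPM against 2.68, 2.18 and 4.20 TPM and fell by 1.09 (SE 0.23, adjusted p = 0.00470). The constitutive subunits that they replace were not called: Psmb5 differed by 0.06 ± 0.068 and Psmb6 by -0.13 ± 0.065 (SE). Psmb8 therefore went from 2.96% ± 0.566 of the Psmb5 level to 1.41% ± 0.345, and Psmb9 from 1.60% ± 0.506 of the Psmb6 level to 0.698% ± 0.231 (SD, n = 3). Psmb10, the third inducible subunit, rose instead, from 27.6 ± 4.55 to 46.3 ± 2.91 TPM (log2 change 0.73 ± 0.11, adjusted p = 0.00103). Of 14 core proteasome subunits, a list added later, 4 rose (Psma7, Psma3, Psma5 and Psma2) and none was called lower. Over all tested genes, 15.2% were called higher.

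Nlrc5 lay under the test's minimum, at 0.264, 0.326 and 0.456 TPM in Control culture and 0.0922, 0.124 and 0.154 TPM in Egr1 culture. The groups did not overlap. Without the minimum, an alternative added after the values were seen, its change was -0.26 ± 0.065 (SE) with an adjusted p of 0.0224. With that gene included, 8 of the 9 members had all Egr1 libraries under all controls, and so did 37.1% of all tested genes.

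**Figure D1:**
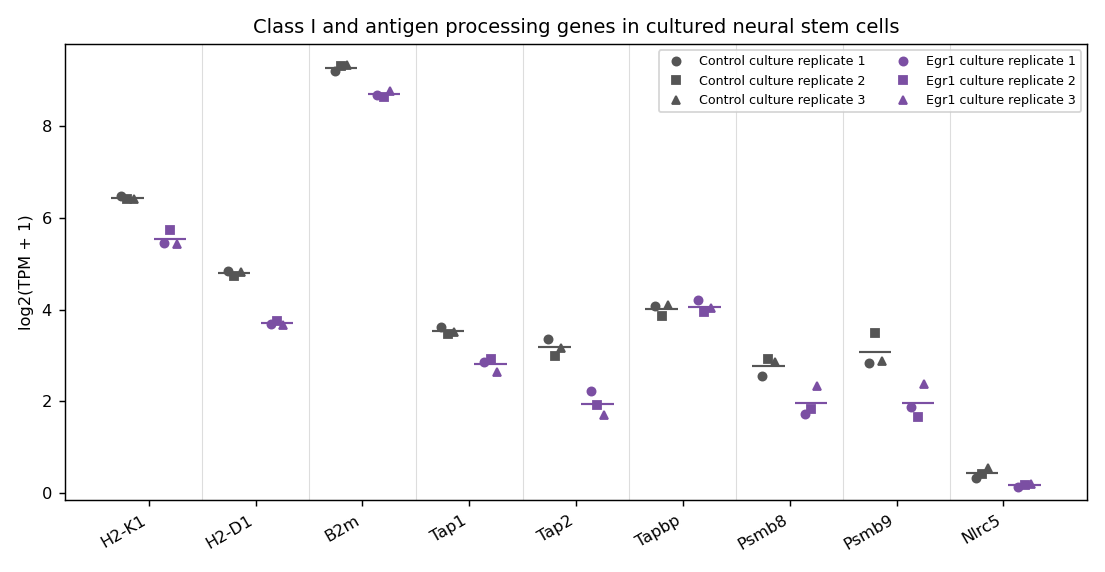
Level of each of the 9 genes in each culture library, as log2(TPM + 1), with Control culture in grey and Egr1 culture in purple and a line at the group mean. All genes except Tapbp show separate groups, with B2m between 394 and 642 TPM at the top and Nlrc5 under 0.5 TPM at the bottom.

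Interferon-induced genes were lower in the same culture comparison. Of 30 listed interferon-induced genes, 24 were tested, 22 were lower and 1 was higher, with a median of -1.02 log2 units beside -0.10 over all genes. Among all tested genes, 29% were called lower and 15.2% higher. Bst2, a surface protein that tethers budding viruses, fell from 46.8 ± 4.52 to 12.6 ± 0.897 TPM (-1.81 ± 0.093). Lgals3bp (-1.82 ± 0.13) and the immunity-related GTPase Igtp (-1.77 ± 0.13) fell by similar amounts. Irgm1, Ifitm3 and Cxcl10, a chemokine, fell by 1.16, 1.02 and 1.28. Isg15, a ubiquitin-like protein, was the only one called higher: it rose from 56.0 ± 2.78 to 154 ± 13.1 TPM (1.44 ± 0.076, adjusted p = 2.40e-06). Of the 24 tested genes, 22 had every Egr1 library below every control, as 37.1% of all tested genes did. Another 2, Isg15 among them, had every Egr1 library above every control, as 18.4% of all tested genes did.

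Of 15 interferon receptor and signalling genes, 7 were lower and 1 was higher, beside 29% and 15.2% of all tested genes. The median of this list was -0.32 log2 units beside -0.10 over all tested genes. Irf9, the DNA-binding part of the ISGF3 complex, fell from 14.4 ± 0.752 to 5.45 ± 0.77 TPM (-1.26 ± 0.11). Stat2, its partner in that complex, fell by 0.56 (SE 0.14). Other genes of the list that fell were the kinase Jak1 (-0.77 ± 0.073), Irf2 (-0.64 ± 0.12) and the receptor chains Ifngr1 (-0.52 ± 0.089) and Ifnar2 (-0.32 ± 0.073). Irf1, a direct activator of class I promoters, rose by 0.30 ± 0.10 (adjusted p = 0.0446).

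Among 17 other class I genes tested, 8 were lower and 1 was higher, beside 29% and 15.2% of all tested genes. The lower ones were H2-Q4 (-1.13 ± 0.12), H2-Q2, H2-M3, Hfe, H2-Q1, H2-Q7, H2-Q5 and Mr1, and the higher one was Fcgrt (0.25 ± 0.086), the neonatal Fc receptor chain. In the loading and trimming list 5 of 13 were lower and 1 (Psmb10) was higher. The median of this list was -0.17 log2 units beside -0.10 over all tested genes. Erap1, which trims peptides in the endoplasmic reticulum, fell by 1.06 (SE 0.12). The proteasome activator subunits Psme1 and Psme2 fell by 0.61 and 0.66, the tapasin relative Tapbpl by 0.83 and the peptidase Lnpep by 0.72. Of 14 class I promoter factors 4 were lower (Nfkb1, Rfxap, Atf1 and Rela) and none was called higher, a share near the 29% of all tested genes called lower. Among the class II genes only 2 were tested: H2-Ab1 was lower and H2-DMa was higher.

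Microglial markers summed to 1.97 to 3.89 TPM over the 6 culture libraries, and Aif1, Cx3cr1, C1qa, C1qb, C1qc and Tyrobp were listed at 0 in all of them. The endothelial Cldn5 was also at 0 in all 6. The pericyte, smooth muscle and fibroblast markers summed to 23.4 to 30.1 TPM in Control culture and 173 to 212 TPM in Egr1 culture, largely through Dcn (0.129 ± 0.0457 against 145 ± 19.1 TPM). Their part in the members' change was not tested.

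**Figure D2:**
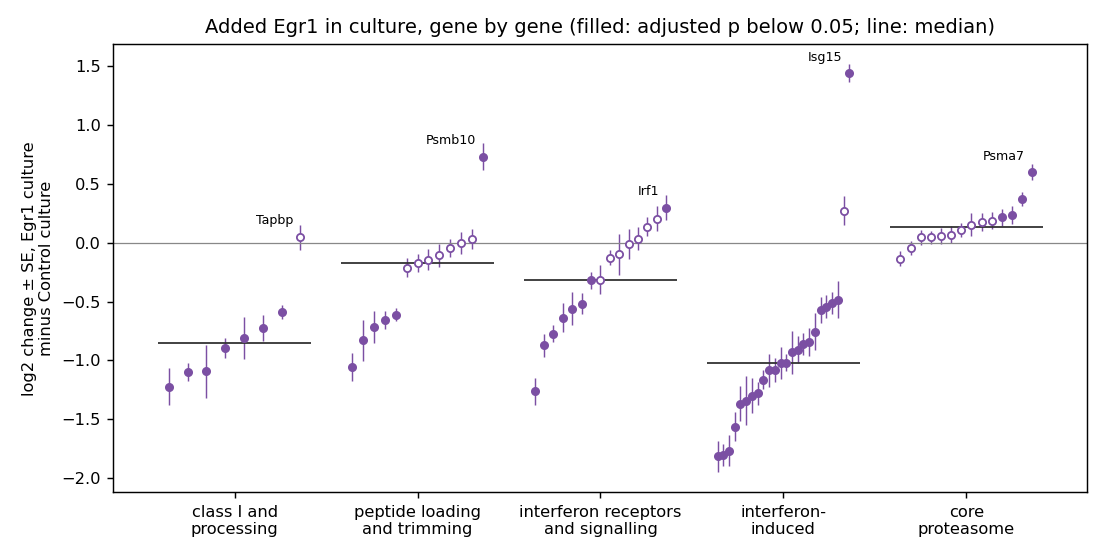
Log2 change ± SE of each tested gene between Egr1 culture and Control culture, in 5 gene lists, with filled points for adjusted p below 0.05 and a line at each list's median. The class I and interferon-induced lists lie mostly under 0, with medians of -0.85 and -1.02, while Tapbp, Psmb10, Irf1 and Isg15 lie above 0.

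At P10, a day after the last injection, no member passed the test. Only 6 members were abundant enough to test, and all 6 differences were positive, with a median of 0.17 log2 units beside 0.015 over all genes. Only 1 gene of 12914 was called anywhere in this comparison, or 0.00774%, and 1575 genes had an unadjusted p below 0.05. H2-K1 came closest to a call among the members. It stood at 16.0, 16.0 and 17.0 FPKM in Control P10 and at 19.0, 20.6 and 18.4 FPKM in MDZ P10, a change of 0.23 ± 0.059 (SE, adjusted p = 0.247). It was the only member whose MDZ libraries all lay above the controls, as 12.2% of all tested genes did.

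The other heavy chain, H2-D1, had 4.78, 6.77 and 6.23 FPKM against 6.48, 6.88 and 5.84 FPKM, so the groups overlapped. B2m ranged more widely among controls, at 33.4, 21.7 and 48.6 FPKM, than after midazolam, at 37.3, 38.7 and 30.6 FPKM. The difference in B2m was 0.10 ± 0.25 (SE), and its sign turned when Control P10 replicate 2 was left out (-0.18). That of H2-D1, 0.10 ± 0.11, turned without Control P10 replicate 1 (-0.020).

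Tap1 had 2.02, 2.29 and 2.53 FPKM in Control P10 against 2.77, 3.48 and 2.38 FPKM in MDZ P10 (0.23 ± 0.12, adjusted p = 0.455). Tap2 had 7.20, 6.56 and 7.74 against 8.45, 8.95 and 7.66 FPKM (0.20 ± 0.077, adjusted p = 0.375). In both transporter genes the third MDZ library fell within the control range and the other two lay above it. Tapbp overlapped as well, at 14.9, 11.6 and 14.5 against 14.3, 15.9 and 15.0 FPKM (0.14 ± 0.092). The immunoproteasome subunits and Nlrc5 were too low to test: Psmb8 had 0.742, 0.604 and 0.958 against 0.711, 1.70 and 0.840 FPKM, and Psmb9 stayed between 0.303 and 0.689 FPKM. Nlrc5 had 0.0480, 0.0432 and 0.0843 FPKM in controls and 0.0835, 0.225 and 0.104 FPKM after midazolam.

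One mouse, MDZ P10 replicate 2, had the highest value of the 6 libraries for 7 of the 9 members and for all 15 testable interferon-induced genes. The 30 listed interferon-induced genes summed to 96.0 FPKM in it and to 56.3 to 67.7 FPKM in the other 5 libraries. Bst2 was at 5.55 FPKM there and at 2.55 to 3.46 FPKM elsewhere. All 15 interferon-induced differences were positive with it, at a median of 0.14. Without this mouse, an alternative added after the values were seen, 7 of 13 were positive, at a median of 0.0034. The 6 members remained positive without it, and their median was 0.11. Microglial markers were lowest in this mouse, at 14.8 FPKM against 16.3 to 20.1 FPKM in the others. Between the P10 groups, pericyte and fibroblast markers summed to 274 to 314 FPKM in controls and 234 to 258 FPKM after midazolam, with 12 of 13 differences negative (median -0.26), and all 6 oligodendrocyte differences were negative too. None of these markers was called, and their part in the members' values was not tested.

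**Figure D3:**
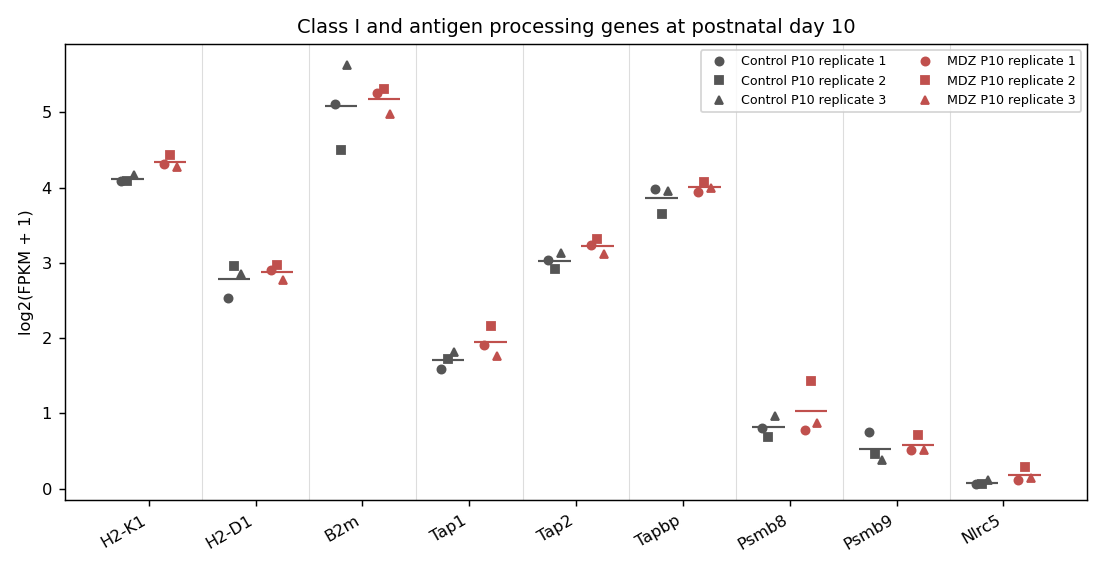
Level of each of the 9 genes in each P10 library, as log2(FPKM + 1), with Control P10 in grey and MDZ P10 in red and a line at the group mean. Only H2-K1 separates the groups, and the square of MDZ P10 replicate 2 is the highest point for Psmb8 at 1.70 FPKM and for Nlrc5 at 0.225 FPKM.

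At 8 weeks, Psmb8 was the only member called between MDZ 8w and Control 8w. It was higher after midazolam, in a comparison where 4.68% of 15264 genes were called higher. Of the others, H2-K1 and Psmb9 had every MDZ library above every control, which 26.2% of genes showed. H2-D1 had every MDZ library below every control, which 10.1% of genes showed. The members' median was 0.77 beside 0.36 over all genes, so the distribution over all genes was shifted upwards as well. Without Control 8w replicate 1 the medians were 0.40 and 0.24, and without RUN MDZ 8w replicate 1 or 2, when 8 members were tested, the members' median was 1.17.

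Psmb8 was listed at 0.241, 0 and 0 TPM in Control 8w and at 10.4, 16.1 and 8.30 TPM in MDZ 8w. The fitted change was 3.45 ± 0.61 (SE, adjusted p = 0.0189), and it depends on the pseudocount of 1 because the controls were near 0. The call was lost without any one of the MDZ libraries (adjusted p from 0.0663 to 0.0949), with a pseudocount of 5 (0.0782), with quantile normalization (0.694) and with array weights (0.470). Microglial markers summed to 0.287, 311 and 317 TPM in the controls and to 167, 314 and 111 TPM in MDZ 8w, and their part in the Psmb8 values was not tested. Psmb9 was listed at 0 in all 3 controls and at 7.08, 8.89 and 7.92 TPM in MDZ 8w (adjusted p = 0.213). Nlrc5 was likewise listed at 0 in all controls and had 0.564, 0 and 0.898 TPM after midazolam.

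H2-K1 had 18.5, 63.5 and 48.0 TPM in Control 8w and 99.1, 109 and 85.0 TPM in MDZ 8w. The change of 1.56 ± 0.41 (SE) had an adjusted p of 0.0720. It was 0.79 without Control 8w replicate 1, which left 1 control sample. H2-D1 went the other way, with 101, 111 and 94.4 TPM in controls and 54.5, 33.2 and 66.9 TPM after midazolam (-1.03 ± 0.38, adjusted p = 0.163). The ratio of H2-K1 to H2-D1 was thus 0.182, 0.570 and 0.508 in the controls and 1.82, 3.29 and 1.27 in MDZ 8w, with no overlap. B2m overlapped, at 242, 390 and 355 against 290, 331 and 225 TPM (-0.11 ± 0.25).

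The loading genes did not separate. Tap1 was at 0.851, 27.0 and 30.5 TPM in controls and at 12.2, 12.7 and 10.2 TPM in MDZ 8w, so Control 8w replicate 1 lay under all MDZ libraries and the other controls above them. Its difference was 0.77 ± 1.06 (SE) with that library and -1.24 without it. Tapbp was listed at 0 in the same library, with 41.7 and 40.8 TPM in the other controls and 42.9, 38.2 and 47.6 TPM after midazolam. Tap2 was highest in that library, at 54.3, 24.1 and 23.6 TPM in controls against 42.7, 24.6 and 30.3 TPM (-0.18 ± 0.53).

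Of 28 tested interferon-induced genes 4 were higher and 1 was lower in MDZ 8w, beside 4.68% and 0.452% of all tested genes. Trim25 (3.86 ± 0.60), Bst2 (3.71 ± 0.62), Irf7 (3.07 ± 0.53) and Oasl2 (2.92 ± 0.64) were higher, and Bst2, Irf7 and Oasl2 were listed at 0 in all controls. In Control 8w 9 of the 30 listed genes were at 0 in every library. Ifitm3, an antiviral membrane protein, fell from 271 ± 90.4 to 100.3 ± 28.0 TPM (-1.42 ± 0.30). Of the loading, other class I and interferon signalling lists, 1 gene each was called higher (Tapbpl, H2-T10 and Socs1, a feedback inhibitor of interferon signalling) and none was called lower. H2-T10 and Socs1 were also listed at 0 in all controls. Without MDZ 8w replicate 3 none of the interferon-induced genes was called. Their median difference was 0.94 log2 units with all libraries. It was 1.07 without Control 8w replicate 1, which left 1 control sample.

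Markers of other cells moved between these groups as well. Pericyte and fibroblast markers summed to 2471 to 3919 TPM in Control 8w and 892 to 1489 TPM in MDZ 8w, and endothelial markers to 933 to 1105 against 686 to 1007 TPM. Radial glial markers summed to 2131 to 2451 TPM in controls and 3512 to 5177 TPM in MDZ 8w. Of these, 4 of 9 were called higher, beside 4.68% of all tested genes. Neuroblast and immature neuron markers summed to 3531 to 3764 against 1932 to 2721 TPM. Beside 0.452% of all tested genes, 2 of these 6 markers (Neurod1 and Prox1) were called lower. Their part in the members' values was not tested.

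Running after midazolam was not accompanied by a call in any of the 9 members. In this comparison 0.157% of all genes were called in either direction, and 1523 of 15264 had an unadjusted p below 0.05. Of the 9 differences, 8 were positive, with a median of 0.44 beside 0.05 over all genes. This median rested on single libraries: it was 0.13 without RUN MDZ 8w replicate 2 (6 of 8 positive) and 0.79 without RUN MDZ 8w replicate 3. B2m had 290, 331 and 225 TPM in MDZ 8w and 509, 444 and 593 TPM in RUN MDZ 8w, with no overlap (0.87 ± 0.22, adjusted p = 0.209). It was called in 3 alternatives: with array weights (0.0362), with the compared groups fitted alone (0.0473) and without Control 8w replicates 2 and 3 (0.0493).

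H2-D1 was the other member without overlap, at 54.5, 33.2 and 66.9 TPM in MDZ 8w and 68.1, 138 and 95.0 TPM in RUN MDZ 8w (0.95 ± 0.34, adjusted p = 0.394). Over all genes, 14.4% had every running library above every MDZ 8w library. H2-K1 overlapped, at 106, 107 and 116 TPM in the runners (0.17 ± 0.37). The ratio of H2-K1 to H2-D1 was 1.56, 0.774 and 1.22 there, overlapping MDZ 8w.

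The processing genes spread widely among the runners. Psmb9 was at 17.1 and 32.1 TPM in replicates 1 and 2 and listed at 0 in replicate 3. Psmb8 had 13.6, 29.8 and 11.8 TPM (0.55 ± 0.55), Tap1 11.1, 27.5 and 13.5 TPM (0.44 ± 0.95) and Nlrc5 2.45, 4.51 and 0.566 TPM (1.11 ± 0.61). RUN MDZ 8w replicate 2 was the highest running library for all 4 genes, and all 4 overlapped MDZ 8w. Tap2 had 20.1, 51.8 and 45.5 TPM and Tapbp 72.0, 80.8 and 29.2 TPM, each spanning the MDZ 8w range. The constitutive subunit Psmb5 was at 76.0 ± 19.9 TPM in runners and 142 ± 15.9 TPM in MDZ 8w (-0.92 ± 0.37, adjusted p = 0.458). Psmb8 was accordingly 13.7%, 46.4% and 18.2% of the Psmb5 level in the runners and 6.81%, 10.8% and 6.69% in MDZ 8w.

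None of 28 interferon-induced genes was called between running and MDZ 8w, and 26 differences were positive, with a median of 0.77. Endothelial markers summed to 1816 to 2608 TPM in RUN MDZ 8w and 686 to 1007 TPM in MDZ 8w. Of these 16 markers, 5 were called higher, among them Cldn5, Flt1 and Cdh5, beside 0.0524% of all tested genes. No endothelial marker was called when any single MDZ 8w or RUN MDZ 8w library was left out, though all 16 differences stayed positive. Without Control 8w replicate 1, 12 were called higher. Pericyte and fibroblast markers summed to 2447 to 3637 against 892 to 1489 TPM, and oligodendrocyte markers to 2382 to 3575 against 187 to 893 TPM. Microglial markers, at 26.0 to 202 against 111 to 314 TPM, did not stand higher in the runners. The part of these cells in the members' values was not tested.

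RUN MDZ 8w against Control 8w shares its samples with the other 8-week comparisons and adds no independent evidence. H2-K1 (1.73 ± 0.41, adjusted p = 0.0351) and Psmb8 (4.01 ± 0.61, adjusted p = 0.00756) were called higher, among 9.41% of all genes. H2-K1, B2m, Psmb8 and Nlrc5 had all running libraries above all controls, as 23% of genes did. The H2-K1 call was lost when any single MDZ 8w or RUN MDZ 8w library was left out (adjusted p from 0.0707 to 0.0921), and without Control 8w replicate 3 (0.0555). In the same comparison 6 of 6 oligodendrocyte markers (median 3.88) and 9 of 16 endothelial markers were called higher. Beside 1.9% of all tested genes, 4 of 6 neuroblast and immature neuron markers were called lower. The part of all these markers in the members' values was not tested.

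**Figure D4:**
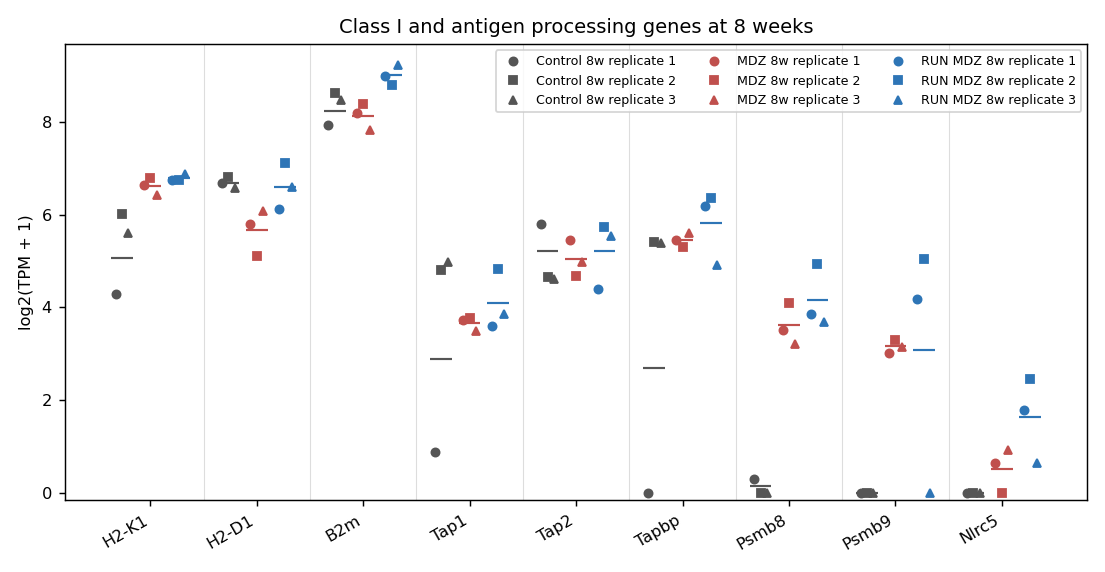
Level of each of the 9 genes in each 8-week library, as log2(TPM + 1), with Control 8w in grey, MDZ 8w in red and RUN MDZ 8w in blue. Lines are group means, with Control 8w replicates 2 and 3 averaged first. Psmb8, Psmb9 and Nlrc5 lie at or near 0 in the controls, and Control 8w replicate 1 stands apart for Tap1 (0.851 TPM) and Tapbp (0 TPM).

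Endogenous Egr1 was not called in any dentate gyrus comparison. Its means at 8 weeks were 2509 TPM in Control 8w, 2207 TPM in MDZ 8w and 1904 TPM in RUN MDZ 8w. At P10 it was at 178, 150 and 187 FPKM in controls and 289, 269 and 231 FPKM after midazolam (0.62 ± 0.11, adjusted p = 0.206), without overlap. H2-K1 also stood higher in all 3 MDZ P10 libraries, and neither gene was called there. At 8 weeks the means of H2-K1 were 37.1 TPM in Control 8w, 97.8 TPM in MDZ 8w and 109.5 TPM in RUN MDZ 8w. The means of Tapbp, Psmb8, Psmb9 and Nlrc5 also rose in this order of groups, and those of H2-D1, B2m, Tap1 and Tap2 did not. For H2-D1 they were 102.1, 51.5 and 100.3 TPM, and for B2m 307.4, 282.2 and 515.3 TPM. In Egr1 culture Egr1 was higher and H2-K1 lower than in Control culture. A link between Egr1 and H2-K1, or any other member, was not tested.

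The mean of H2-K1, H2-D1 and B2m was followed most closely across all 3 sets of libraries by 5 genes, ranked over 8175 genes by the smallest of 3 Pearson coefficients. They were Fam213a (smallest r 0.853), Parp12 (0.852), Itm2b (0.814), Bcap31 (0.813) and Sec62 (0.799), over 6 libraries at P10, 8 samples at 8 weeks and 6 in culture. Libraries of a group share their treatment, and the ranking is a description.

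**Figure D5:**
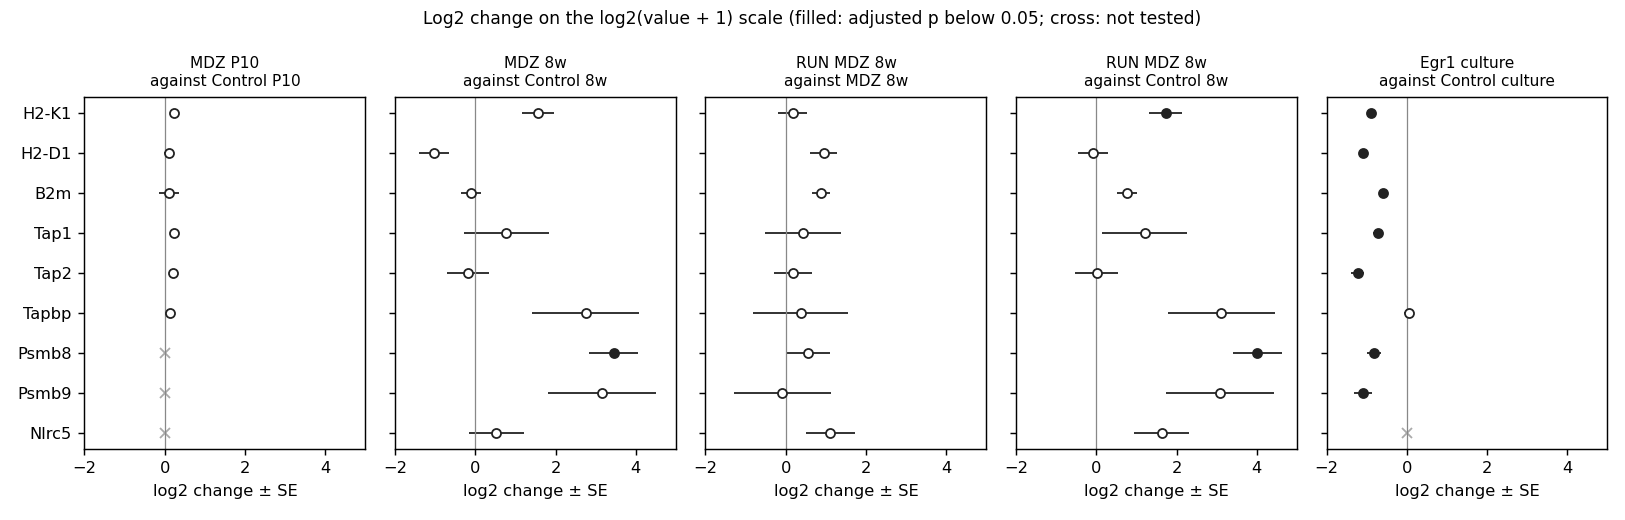
Log2 change ± SE of each gene in the 5 comparisons, on the log2(value + 1) scale, with filled points for adjusted p below 0.05 and crosses at 0 for genes too low to test. Filled points lie left of 0 only in culture (7 genes), and P10 shows none.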

How the data were processed

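RNA sequencing of 21 libraries was used. The authors deposited P10 values that read as FPKM and 8-week and culture values that read as TPM. No label names these units: they were inferred from the values, since TPM libraries each sum to about 1000000 and P10 libraries to 241508 to 252344. TopHat, Bowtie2, DESeq2 and the mm10 build are named in the submitters' processing notes, with neither version nor role. How values were quantified, on which annotation and with which strand setting is not stated in the labels. Per the labels, mRNA was isolated directly and a directional library kit was used. No counts were recovered, so no count test was run. Relative depth was read from the steps between low values.

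Values were transformed to log2(value + 1), genes averaging 1 or more in a fit were kept, and limma 3.58.1 (R 4.3.3, trend, two-sided) was fitted to the P10, 8-week and culture libraries separately. The P values were Benjamini-Hochberg adjusted over all genes tested and called below 0.05. Fold changes on this scale understate those of low genes. The 3 groups at 8 weeks shared 1 estimate of the spread. The script was tested on simulated data. Alternatives changed the pseudocount, filter, scaling, weights and libraries used.

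The members and companion lists were chosen with earlier results of these data known. All 9 members were named whatever their result. In companion lists up to 6 called genes by adjusted p were named per list and comparison, and a few more are given as full counts. One gene of the signalling list is counted but not reported here by name. The core proteasome list and 2 motifs were added later. Genes like the members were ranked among those with a mean of at least 5 in each fit. Promoters came from RefSeq on GRCm38.p6 and were aligned with Biopython 1.88. Equal replicate numbers did not pair libraries: the correlation of their deviations was not above 0.1 for every pair in any comparison.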

Additional observations from a re-analysis of the deposited data

Results flagged for a closer look

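Tap1 lay on different sides of the control mean after midazolam at the 2 ages, although its fitted change on the log2 scale was positive at both (0.23 at P10 and 0.77 at 8 weeks, neither called). At P10 every MDZ library (2.77, 3.48 and 2.38 FPKM) lay above the control mean of 2.28 FPKM, and at 8 weeks every MDZ library (mean 11.7 TPM) lay below the control mean on the TPM scale. The difference between the ages was not tested, the units differ, and at 8 weeks the direction rests on Control 8w replicates 2 and 3, since replicate 1 stood at 0.851 TPM. Without replicate 1 the fitted change at 8 weeks was -1.24.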

How the results depend on the processing

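In culture, 109 of 111 alternative values for single members kept direction and call. The number of called members is not among these values, here and in the comparisons below, and is given separately. The number of called members was 7 in every alternative except 8 without a minimum and 6 at a mean of at least 5, where fewer genes were tested. Tapbp turned to -0.0273 and -0.0267 without Control culture replicate 2 and Egr1 culture replicate 1 (range -0.0273 to 0.11). Median-of-ratios scaling and quantile normalization also left 7 members called. At P10, 81 of 83 values kept both, and no alternative called a member. H2-D1 turned to -0.0202 without Control P10 replicate 1 (range -0.0202 to 0.19) and B2m to -0.18 without Control P10 replicate 2 (up to 0.38 without replicate 3).

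For MDZ 8w against Control 8w, 153 of 174 values kept both. The called members numbered 0 with a pseudocount of 5, quantile normalization or array weights, 2 with the compared groups fitted alone, and 0 to 4 when libraries were left out. B2m turned to 0.0448 without MDZ 8w replicate 3 and 0.20 without Control 8w replicates 2 and 3 (range -0.42 to 0.20), and Tap2 to 0.40 without Control 8w replicate 1 (range -0.75 to 0.40). Tap1 turned to -1.02 and Nlrc5 to -1.30 with quantile normalization, which moved the median of all genes from 0.36 to -0.06, and Tap1 to -1.24 without Control 8w replicate 1 (range -1.24 to 2.77).

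For RUN MDZ 8w against MDZ 8w, 168 of 175 values kept both. One member was called with array weights, with the compared groups fitted alone and without Control 8w replicates 2 and 3, so the range when libraries were left out was 0 to 1. Tap2 turned to -0.0628 without RUN MDZ 8w replicate 2 (range -0.0628 to 0.60). Psmb9 turned to 0.31 with a pseudocount of 5, to 0.40 with quantile normalization and to 1.46 without RUN MDZ 8w replicate 3 (range -1.07 to 1.46).

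For RUN MDZ 8w against Control 8w, 148 of 175 values kept both. The called members numbered 0 with quantile normalization, array weights or the compared groups fitted alone. They numbered 1 to 2 when a single library was left out and Control 8w kept 2 samples. H2-D1 turned to 0.16 without RUN MDZ 8w replicate 1 (range -0.34 to 0.16). Tap1 turned to -0.75 with quantile normalization and -0.80 without Control 8w replicate 1 (range -0.80 to 3.21). Tap2 turned to -0.0488 with median-of-ratios scaling, -0.24 with quantile normalization, -0.13 with array weights, -0.24 and -0.15 without RUN MDZ 8w replicates 2 and 3, and -0.57 without Control 8w replicates 2 and 3 (range -0.57 to 0.59). Nlrc5 turned to -0.45 with quantile normalization. The causes were not tested.

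The replicate block left 7 members called in culture and 0 at P10. With Control 8w replicates 2 and 3 kept apart, the replicate block left 1, 0 and 2 called in the 8-week comparisons in the order above, and Tap2 in MDZ 8w turned to 0.0137 with and without the block. Equal numbers correlated at -0.08, 0.12 and 0.11 at P10 and at 0.02, -0.03 and -0.05 in culture. Depth is unknown at 8 weeks, and the lowest genes, Nlrc5 above all, are limited by it everywhere.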
